A study of Homo sapiens with 6 samples.

Results

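The genes described here are 10 genes that report on, or restrain, signalling through the ERK pathway. They were taken by symbol from a table of 60676 genes and comprised 4 immediate early genes (FOS, JUN, EGR1 and IER2) and 6 feedback genes (DUSP4, DUSP6, SPRY2, SPRY4, SPRED1 and ETV5). Of these, ETV5 encodes a transcription factor, an output of the pathway, and is only grouped with the feedback genes. All 10 were found. The material was SK-N-BE, a line of human neuroblastoma cells in which retinoic acid brings out neuronal features. All cells were in medium with 10 μM retinoic acid at 1.5 days of differentiation, and the groups differed in the small interfering RNA they received, which was either a scrambled control (si-SCR, 3 libraries) or a pool that depletes CyCoNP, a long noncoding RNA (si-CyCoNP, 3 libraries). A single cell line, a single pool and a single scrambled control were used, and untransfected cells were not analysed here. Effects of the pool other than the loss of CyCoNP were not tested. The labels do not say whether the replicates were separate cultures, so that p-values measure the spread between these samples, which may be technical.

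ERK is the last kinase of a relay that runs from growth factor receptors through RAS, RAF and MEK. Active ERK phosphorylates nuclear factors such as the ELK proteins, which act with SRF on the promoters of immediate early genes, and these are transcribed within minutes and fade quickly. A slower wave of feedback genes then dampens the relay, since the DUSP phosphatases remove phosphate from ERK and the Sprouty and SPRED proteins act upstream at RAS and RAF. In neuroblasts the pathway is known to take part in proliferation, in survival and in the outgrowth of neurites.

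Libraries held between 3762009 and 4799407 counts. The targeted transcript, LINC02381, had 208 to 315 counts in the si-SCR libraries and 12 to 30 in the si-CyCoNP libraries (log2 fold change -3.78, edgeR quasi-likelihood test, adjusted p = 6.84e-14). On the first principal component, which carried 51.4% of the variance, si-SCR replicate 3 (-20.9) lay nearer to the si-CyCoNP libraries (29.2 to 32.2) than the other si-SCR libraries (-34.8 and -35.5). The 9 adrenergic neuroblast markers examined, among them MYCN, GATA2 and DBH, were all present, and their summed level was 1941 to 2224 FPKM (counted fragments scaled to the length of the gene and to the library total) in si-SCR against 1746 to 1867 FPKM in si-CyCoNP. Of the 9, 6 were lower, 2 did not pass the test and 1, MYCN, was higher (log2 fold change 0.84, edgeR, adjusted p = 2.65e-09). Without MYCN the other 8 markers summed to 1512 to 1778 FPKM in the si-SCR libraries and to 967 to 995 FPKM in the si-CyCoNP libraries, without overlap. The 8 fibroblast and mesenchymal markers summed to 48.8 to 59.8 FPKM in si-SCR and to 50.2 to 57.8 FPKM in si-CyCoNP, with COL1A2 and PRRX1 at 0. This sum rested mostly on THY1 and PDGFRB, and single markers moved both ways. Of 6 tested, COL1A1 (1.68) and COL3A1 (2.83) were higher, both past the expression filter in si-CyCoNP alone, DCN (-0.82) and THY1 (-0.38) were lower on the log2 scale, and 2 did not pass. The 6 immune and endothelial markers summed to at most 0.152 FPKM, with LYZ and PECAM1 at 0. The part of the adrenergic and mesenchymal marker changes in the results below was not tested, and in bulk RNA fewer cells of a type and less RNA per cell cannot be told apart.

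Between si-SCR and si-CyCoNP the 10 genes did not move together. JUN and DUSP4 fell to less than 50% of their si-SCR level, EGR1, IER2 and SPRY4 rose by 1.25 to 1.51 times, and FOS, DUSP6, SPRY2, SPRED1 and ETV5 did not pass the test. Thus 5 of 10 genes (50%) passed an adjusted p of 0.05, 3 upwards and 2 downwards, where 28.4% of the 13966 genes tested passed, 14.2% in each direction (1982 higher and 1990 lower). With scaling by library totals alone the same threshold gave 2465 higher and 1574 lower genes, and still 3 higher and 2 lower among the 10. At a change of at least 2 times, 2 of the 10 were lower and 0 higher, against 2.98% and 2.28% of all genes. The median log2 fold change over the 10 genes was 0.0003, beside 0.0053 over all genes tested. All 10 stood above the expression filter, a mean of 1 FPKM in either group, in every library of both groups, so the filter removed none of them. In 6 of 10 genes the FPKM values of the groups did not overlap, as was the case for 40.3% of all genes. The shares of all genes, here and beside the lists below, were not taken over genes of like level.

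**Figure D1:**
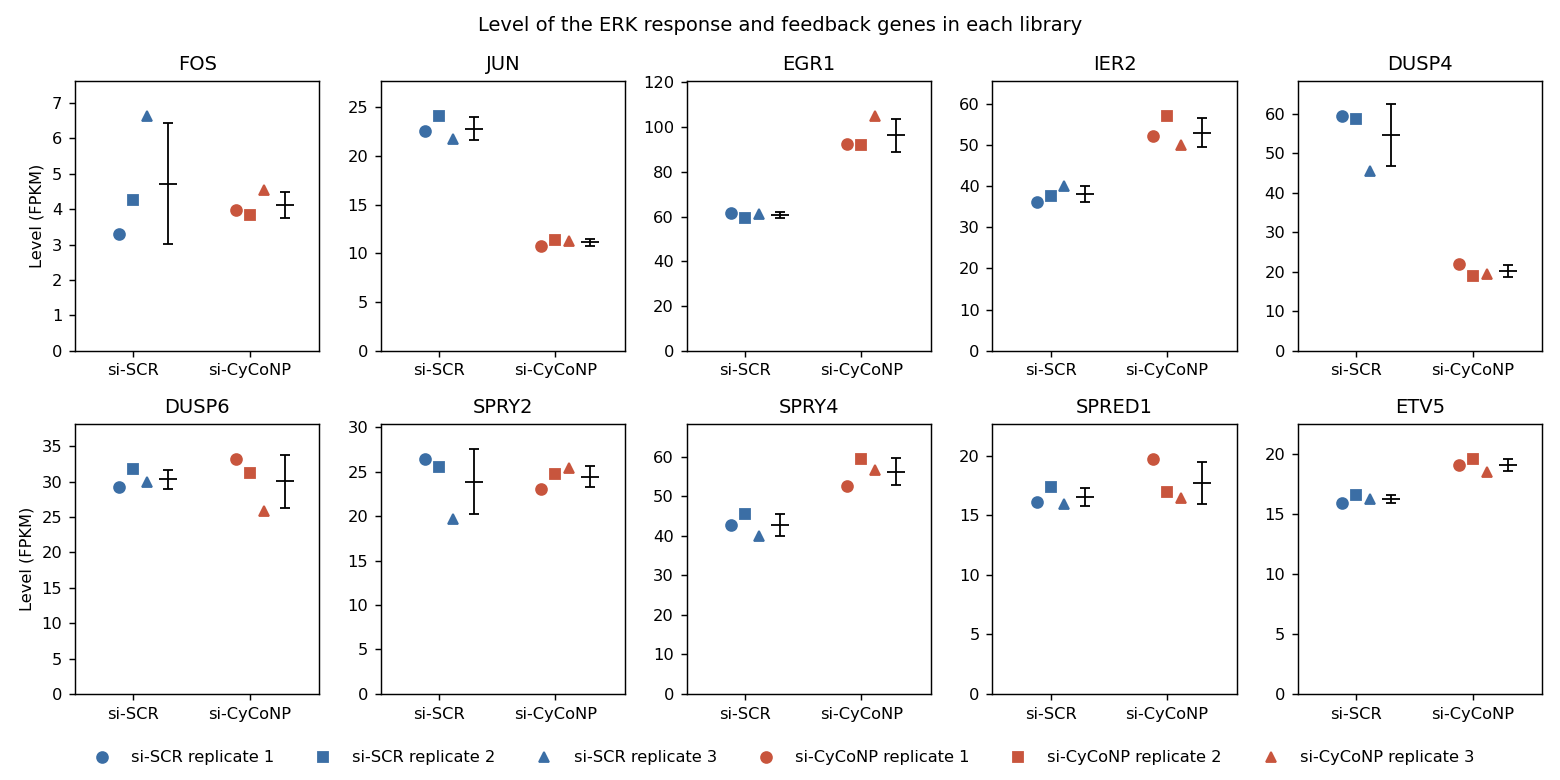
Level of each of the 10 genes (vertical axis, FPKM, starting at 0 and scaled to each gene) in the 3 si-SCR libraries (blue) and the 3 si-CyCoNP libraries (red), with symbol shape marking the replicate number and the black mark beside each group giving mean ± SD. The groups are apart for JUN, EGR1, IER2, DUSP4, SPRY4 and, by a small step, ETV5, and they overlap for FOS, DUSP6, SPRY2 and SPRED1.

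The promoters of the immediate early genes are among the places where ERK signalling is read, though these genes respond to other signals too. The 4 genes were found in RefSeq's promoter set (GRCh38.p14), and the 150 bases before their transcription start are shown 5′ to 3′ on the strand of the gene, with matches in capitals. In EGR1, 2 CArG boxes, the sequence that SRF binds, start 105 and 83 bases before the transcription start. In JUN, the element TGACATCA, a site for heterodimers of JUN and ATF family proteins, starts 67 bases before it. In IER2, an ETS element (CCGGAAG, read here from the other strand as CTTCCGG) starts 27 bases before it. FOS held no match in these bases and is shown beside the others. EGR1 lies at chr5:138465329-138465478 (plus strand), JUN at chr1:58784048-58784197 (minus strand), IER2 at chr19:13150261-13150410 (plus strand) and FOS at chr14:75278678-75278827 (plus strand).
EGR1: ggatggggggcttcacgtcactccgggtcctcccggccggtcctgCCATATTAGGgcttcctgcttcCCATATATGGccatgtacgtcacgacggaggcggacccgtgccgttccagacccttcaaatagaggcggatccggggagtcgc
JUN: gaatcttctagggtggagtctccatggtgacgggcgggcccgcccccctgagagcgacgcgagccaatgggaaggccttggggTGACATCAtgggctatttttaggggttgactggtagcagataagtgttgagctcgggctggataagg
IER2: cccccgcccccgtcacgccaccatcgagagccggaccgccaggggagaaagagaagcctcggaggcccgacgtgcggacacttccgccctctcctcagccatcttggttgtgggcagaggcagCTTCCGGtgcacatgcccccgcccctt
FOS: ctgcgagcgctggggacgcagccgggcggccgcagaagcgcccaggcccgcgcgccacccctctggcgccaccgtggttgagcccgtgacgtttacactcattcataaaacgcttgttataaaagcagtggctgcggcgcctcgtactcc

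The full entries of 300 bases (250 before the start) of 8 of the 10 genes were searched for 6 motifs on both strands. DUSP4 and ETV5 were not searched, so the statements on the 8 leave them out. The CArG box was found in EGR1 alone of the 8, and in 1.29% of all 35116 promoter entries. TGACATCA was found in JUN alone (2.61% of all), and CCGGAAG in IER2 alone (10.3% of all). The EGR element GCGNGGGCG was found in EGR1, SPRY2 and SPRY4 (9.43% of all). It started 198 bases before the start in EGR1, 195 bases in SPRY4, and 134 and 41 bases in SPRY2. The 8 genes had 10 entries in all, so the SPRY2 positions may be counted from different starts and may mark the same site. The AP-1 element TGANTCA and the cAMP response element TGACGTCA were found in none of the 8, and in 7.71% and 1.85% of all entries. The matches in EGR1 did not overlap. Bases further upstream and variants of these letters were not searched, so a gene without a match, such as FOS for the CArG box, may still hold the element. A match is a stretch of letters, and these files hold no measurement of binding.

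Among the immediate early genes, EGR1 and IER2 rose, JUN fell and FOS could not be separated from no change. EGR1 (ENSG00000120738), a zinc finger transcription factor, lies at chr5:138465479-138469303 and has 2 exons in its canonical transcript. Its level was 61.8, 59.4 and 61.1 FPKM in si-SCR replicates 1, 2 and 3, and 92.4, 91.9 and 104.9 FPKM in si-CyCoNP replicates 1, 2 and 3. Every si-CyCoNP library lay above every si-SCR library, and EGR1 had the highest mean of the 10 genes in both groups. Its log2 fold change was 0.60 (SE 0.08), a 1.51-fold rise (edgeR, adjusted p = 3.05e-06). IER2 (ENSG00000160888), which encodes a small nuclear protein induced by growth factors, lies at chr19:13150411-13154911. It stood at 36.2, 37.6 and 40.1 FPKM in si-SCR and at 52.0, 56.9 and 49.9 FPKM in si-CyCoNP, again without overlap. The log2 fold change of IER2 was 0.41 (SE 0.09), a 1.33-fold rise (edgeR, adjusted p = 0.000609). STX10, which starts close to IER2 in the other direction, stood at -0.04 on the log2 scale (edgeR, adjusted p = 0.877), and the 2 antisense genes over IER2 had at most 5 counts in any library.

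JUN (ENSG00000177606), a subunit of the AP-1 transcription factor, lies at chr1:58776845-58784048 and has 1 exon in its canonical transcript. It was read at 22.6, 24.1 and 21.7 FPKM in si-SCR and at 10.7, 11.3 and 11.3 FPKM in si-CyCoNP. The si-CyCoNP libraries were close to one another and all lay below the si-SCR libraries, with a coefficient of variation (SD as a percentage of the mean) of 2.90% within si-CyCoNP and 5.27% within si-SCR, where the median over all genes tested was 11.2% and 13.3%. Its log2 fold change was -1.10 (SE 0.11), a 2.15-fold decrease (edgeR, adjusted p = 1.63e-08). The estimate was -0.97 on the log2(FPKM + 1) scale, short of 2 times, and between -1.16 and -1.03 under the other alternatives. LINC01135, the noncoding gene that starts beside JUN in the other direction, had at most 1 count in any library.

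FOS (ENSG00000170345), the partner of JUN in AP-1, lies at chr14:75278826-75282230 and was the lowest of the 10 genes in both groups. It had 45, 51 and 101 counts in si-SCR against 61, 52 and 60 counts in si-CyCoNP, which corresponded to 3.29, 4.26 and 6.63 FPKM and to 3.99, 3.84 and 4.54 FPKM. The groups overlapped, and si-SCR replicate 3 was the highest library of the 6. The coefficient of variation was 36.4% within si-SCR, the largest of the 10 genes, and 8.96% within si-CyCoNP. The log2 fold change was -0.27, with a 95% interval from -0.72 to 0.17 (edgeR, adjusted p = 0.387). Without si-SCR replicate 3 it was 0.05 (edgeR, adjusted p = 0.914), so that the sign rested on 1 library. The same library had the highest summed level of 13 heat shock and stress genes within si-SCR (1126 FPKM, against 771 and 902 FPKM in replicates 1 and 2), and the part of this in the FOS value was not tested.

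Within the JUN and FOS families the change was uneven. JUN made up 10.9%, 10.6% and 10.7% of the summed FPKM of JUN, JUNB and JUND in si-SCR against 5.47%, 5.03% and 5.81% in si-CyCoNP. The summed level itself was 212 ± 12.9 FPKM in si-SCR against 205 ± 17.6 FPKM in si-CyCoNP (SD, n = 3). JUND and JUNB, which were more abundant, stood at log2 fold changes of -0.13 and 0.18 and did not pass the test (edgeR, adjusted p = 0.296 and 0.174). On the FOS side the dominant member was FOSL2, a relative of FOS that also pairs with JUN. Its level was 16.6, 14.7 and 11.3 FPKM in si-SCR against 6.95, 7.82 and 5.73 FPKM in si-CyCoNP. FOSL2 fell 2.18-fold (log2 fold change -1.12, edgeR, adjusted p = 1.88e-07). The summed FPKM of FOS, FOSB, FOSL1 and FOSL2 was 19.5 ± 0.848 in si-SCR against 12.8 ± 1.04 in si-CyCoNP (SD, n = 3), without overlap between the groups. FOS itself was 24.6% ± 9.96 of that sum in si-SCR against 32.4% ± 4.58 in si-CyCoNP, with overlapping groups. EGR1 made up 97.3% or more of the summed EGR1, EGR2, EGR3 and EGR4 level as a mean in either group.

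**Figure D2:**
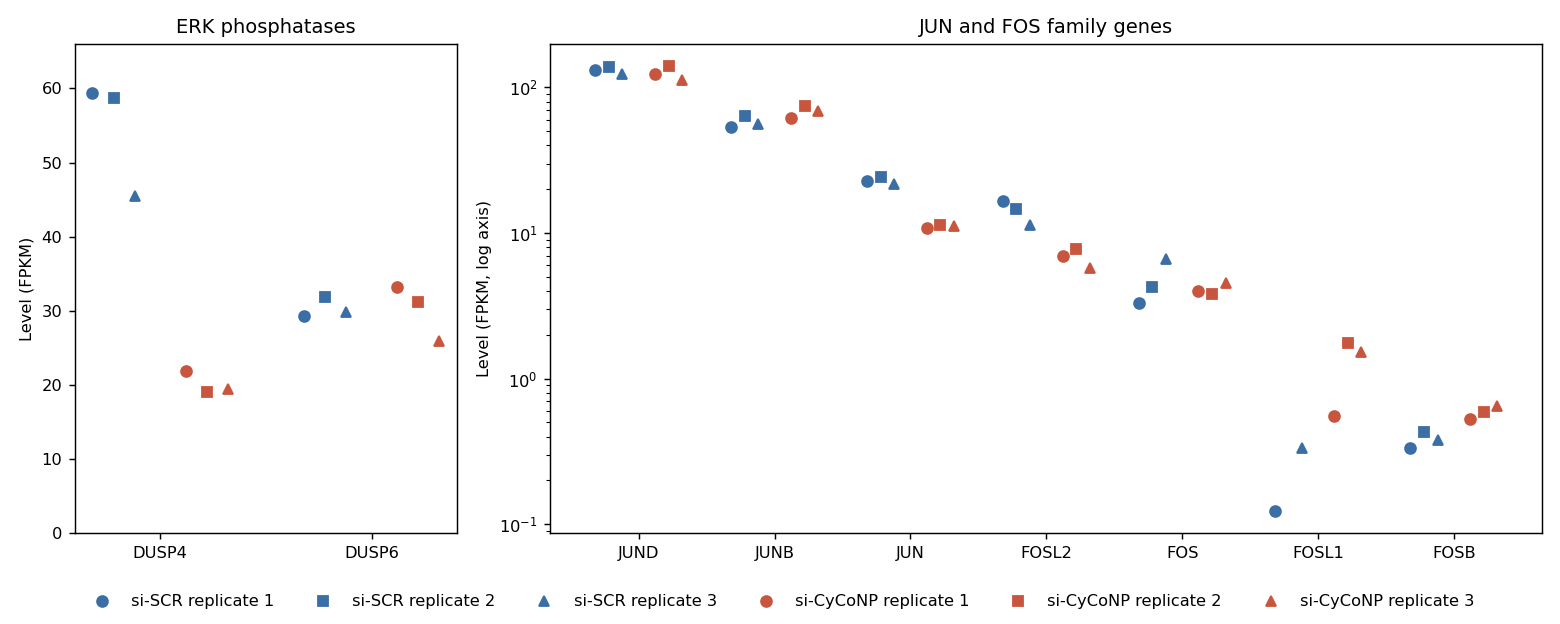
Levels (FPKM) in each library of the ERK phosphatases DUSP4 and DUSP6 on a linear axis from 0 (left) and of the JUN and FOS family genes on a log axis (right), with blue for si-SCR, red for si-CyCoNP and symbol shape for the replicate number. DUSP4 lies above DUSP6 in the si-SCR libraries and below it in the si-CyCoNP libraries, JUN and FOSL2 are lower in all 3 si-CyCoNP libraries, JUND and JUNB overlap between the groups, and FOSL1 of si-SCR replicate 2, listed at 0, cannot be drawn on a log axis.

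Among the 6 feedback genes, DUSP4 fell, SPRY4 rose and the other 4 did not pass the test. DUSP4 (ENSG00000120875) encodes a nuclear phosphatase that is induced by ERK and inactivates it. The gene lies at chr8:29333064-29350684 and has 4 exons in its canonical transcript. Its level was 59.4, 58.8 and 45.5 FPKM in si-SCR against 21.9, 19.0 and 19.4 FPKM in si-CyCoNP. The highest si-CyCoNP library (replicate 1) lay well below the lowest si-SCR library (replicate 3). The log2 fold change was -1.51 (SE 0.10), a 2.84-fold decrease (edgeR, adjusted p = 1.27e-11), and it kept between -1.64 and -1.39 under all 14 alternatives. A noncoding gene without a symbol (ENSG00000285601), which starts beside DUSP4 in the other direction, had 9, 18 and 10 counts in si-SCR against 5, 4 and 9 counts in si-CyCoNP and was below the expression filter.

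DUSP6 (ENSG00000139318), at chr12:89347235-89352501, encodes the cytoplasmic counterpart of DUSP4, a phosphatase with a strong preference for ERK. It was read at 29.3, 31.8 and 29.9 FPKM in si-SCR and at 33.2, 31.2 and 25.9 FPKM in si-CyCoNP. The si-CyCoNP libraries spread on both sides of the si-SCR libraries. Its log2 fold change was -0.08, with a 95% interval from -0.28 to 0.12 (edgeR, adjusted p = 0.596), and turned to 0.01 without si-CyCoNP replicate 3. DUSP4 made up 67.0%, 64.9% and 60.3% of the summed FPKM of DUSP4 and DUSP6 in si-SCR against 39.8%, 37.9% and 42.9% in si-CyCoNP. The summed transcript level of DUSP4 and DUSP6 was 84.9 ± 8.27 FPKM in si-SCR against 50.2 ± 4.88 FPKM in si-CyCoNP (SD, n = 3). Other DUSP genes that were tested (DUSP1, DUSP5, DUSP7 and DUSP8) are not in this sum. Of these, DUSP7 rose, as given below, and the others did not pass the test.

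The Sprouty genes encode membrane-associated inhibitors that act between the receptor and RAF. SPRY4 (ENSG00000187678), at chr5:142310427-142326455, stood at 42.7, 45.4 and 40.0 FPKM in si-SCR and at 52.5, 59.3 and 56.7 FPKM in si-CyCoNP. All si-CyCoNP libraries lay above all si-SCR libraries. The log2 fold change was 0.33 (SE 0.08), a 1.25-fold rise (edgeR, adjusted p = 0.00332), and its antisense gene SPRY4-AS1 had at most 12 counts in any library. SPRY2 (ENSG00000136158), at chr13:80335976-80341126, was read at 26.4, 25.6 and 19.7 FPKM in si-SCR and at 23.1, 24.8 and 25.4 FPKM in si-CyCoNP. The lowest SPRY2 value was that of si-SCR replicate 3, and the groups overlapped. Its log2 fold change was -0.03, with a 95% interval from -0.27 to 0.20 (edgeR, adjusted p = 0.854), and its sign was not fixed, with 0.03 under scaling by library totals, and with 0.06, 0.02 and 0.0020 when si-SCR replicate 1, replicate 2 of the same group or the first si-CyCoNP replicate was left out. SPRY4 made up 64.0% ± 2.47 of the summed Sprouty level in si-SCR against 69.0% ± 0.797 in si-CyCoNP (SD, n = 3). SPRY1, below the expression filter, had 1, 2 and 2 counts in si-SCR against 15, 11 and 9 counts in si-CyCoNP. It passed the test when the filter was dropped for every gene counted in 2 or more libraries (edgeR, adjusted p = 0.00181), and it is named here after its values were seen.

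SPRED1 (ENSG00000166068), at chr15:38252836-38357249, encodes the protein that brings neurofibromin to RAS at the membrane. It was read at 16.2, 17.4 and 15.998 FPKM in si-SCR and at 19.7, 16.9 and 16.5 FPKM in si-CyCoNP. Only si-CyCoNP replicate 1 lay outside the range of the control libraries. Its log2 fold change was 0.04, with a 95% interval from -0.15 to 0.22 (edgeR, adjusted p = 0.814), and dropped below 0 when si-SCR replicate 3 (-0.01) or si-CyCoNP replicate 1 (-0.05) was left out. ETV5 (ENSG00000244405), at chr3:186046314-186110318, encodes an ETS transcription factor of the PEA3 group that is transcribed under ERK signalling. It stood at 15.9, 16.6 and 16.2 FPKM in si-SCR and at 19.1, 19.5 and 18.5 FPKM in si-CyCoNP. The groups were apart and tight, but ETV5 did not pass the count test, where its log2 fold change was 0.16, with a 95% interval from -0.02 to 0.35 (edgeR, adjusted p = 0.189, range over the alternatives 0.0401 to 0.339). It passed on both log2 FPKM scales (limma, log2 difference 0.22 and 0.23, adjusted p = 0.0426 and 0.0401), which do not correct for library composition. The annotated span of ETV5 overlaps on the same strand with that of DGKG, which rose by 1.25 on the log2 scale (edgeR, adjusted p = 5.46e-09). Whether their exons overlap was not examined, and the part of DGKG in the ETV5 count was not tested.

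**Figure D3:**
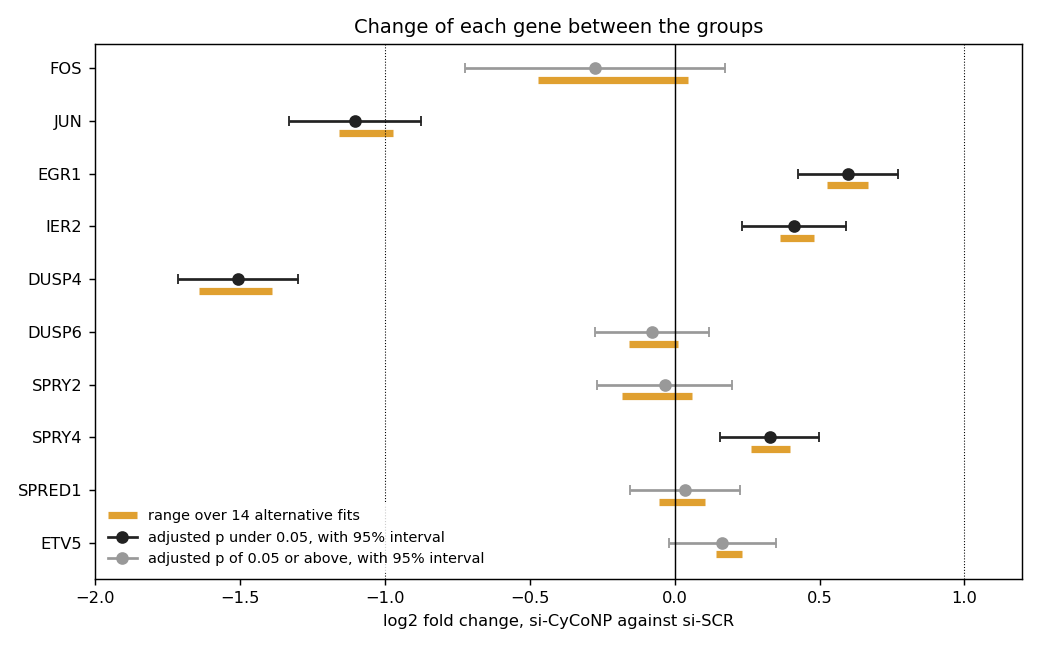
Log2 fold change of si-CyCoNP against si-SCR (horizontal axis, dotted lines at changes of 2 times) for each of the 10 genes, with the 95% interval of the edgeR estimate; black points had an adjusted p under 0.05, grey points had not, and the orange bar below each point spans the estimates of 14 alternative fits. JUN and DUSP4 lie near or beyond -1, EGR1, IER2 and SPRY4 lie between 0.33 and 0.60, and the bars of FOS, DUSP6, SPRY2 and SPRED1 cross 0.

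Ordered by level, the si-SCR libraries ran from EGR1 (60.7 FPKM as a mean) through DUSP4 (54.6), SPRY4 (42.7), IER2 (38.0), DUSP6 (30.3), SPRY2 (23.9), JUN (22.8), SPRED1 (16.5) and ETV5 (16.2) to FOS (4.72). Neighbours whose libraries overlapped were EGR1 and DUSP4, SPRY4 and IER2, SPRY2 and JUN, and SPRED1 and ETV5. In si-CyCoNP the order was EGR1 (96.4 FPKM), SPRY4 (56.2), IER2 (53.0), DUSP6 (30.1), SPRY2 (24.4), DUSP4 (20.1), ETV5 (19.0), SPRED1 (17.7), JUN (11.1) and FOS (4.12). Here SPRY4 and IER2, DUSP4 and ETV5, and ETV5 and SPRED1 overlapped. DUSP4 moved from rank 2 to rank 6 and JUN from rank 7 to rank 9.

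The study examined miR-4492 as a partner of CyCoNP, and the match of its seed was therefore looked up in the genes described here. The mature miRNA (RefSeq, chr11:118910765-118910781, GRCh38.p14, 17 bases) is shown with its seed in capitals, followed by the match in SPRY4 with the bases that pair with the seed in capitals.
miR-4492: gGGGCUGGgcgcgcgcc
SPRY4 site: tgaatgccttcCCAGCCCctccttctccc
The 7-base site CCAGCCC occurred 1 time in the 3′UTR of SPRY4 (3779 bases in the canonical transcript, GENCODE) and in none of the 3′UTRs of the other 9 genes, which were 782 to 5585 bases long. Among 10488 tested genes with an annotated 3′UTR, 2452 (23.4%) held it. Sites of other kinds and other transcripts were not examined, and the part of miR-4492 in any of the changes was not tested.

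In the wider set of immediate early genes, both directions were found. Of 26 further genes of this class 18 were tested, and 4 rose, 6 fell and 8 did not pass (55.6% passed, against 28.4% of all genes tested), with a median log2 fold change of -0.13. The 4 with the smallest p-values were all lower. They were FOSL2, given above, KLF6 (-0.54, edgeR, adjusted p = 6.80e-05) and KLF2 (-0.97, edgeR, adjusted p = 0.000175), both zinc finger factors, and ATF3 (-0.69, edgeR, adjusted p = 0.00169), a stress-inducible partner of JUN. The 4 that rose, named after their values were seen, were SRF (0.45), the factor that binds CArG boxes, EGR3 (1.01), NR4A3 (1.35) and FOSL1 (2.76), of which FOSL1 had 1, 0 and 3 counts in si-SCR against 5, 14 and 12 counts in si-CyCoNP, so few that its estimate depends on the prior count (edgeR, adjusted p = 0.00239, 0.00212, 0.00568 and 0.00865). NR4A3 and FOSL1 reached the filter of 1 FPKM in the si-CyCoNP mean alone, so that these 2 of the 4 rises were tested only because they were high there. SRF stood at 9.69, 10.8 and 11.2 FPKM in si-SCR and at 14.8, 15.5 and 15.1 FPKM in si-CyCoNP, without overlap.

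Other feedback and output genes passed the test about as often as all genes. Of 20 listed, 14 were tested, of which 1 rose, 3 fell and 10 did not pass (28.6% passed, against 28.4% of all genes tested), with a median log2 fold change of 0.005. CCND1, the gene of cyclin D1, fell by 0.40 on the log2 scale (edgeR, adjusted p = 8.29e-05). IL17RD, an inhibitor of fibroblast growth factor signalling, fell by 1.70 (edgeR, adjusted p = 0.000349), but the groups overlapped. In si-SCR, replicate 3 stood at 0.79 FPKM, inside the range of the si-CyCoNP libraries (0.40 to 0.86 FPKM). Replicates 1 and 2 of si-SCR stood at 2.34 and 3.17 FPKM. The mean of IL17RD reached the expression filter in si-SCR alone. SPRED3 fell by 0.63 (edgeR, adjusted p = 0.0253) and the phosphatase gene DUSP7 rose by 0.39 (edgeR, adjusted p = 0.0288). The 1 rise became 0 when si-SCR replicate 1, si-SCR replicate 3, si-CyCoNP replicate 1 or si-CyCoNP replicate 2 was left out.

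Of 27 genes of the relay itself, 26 were tested, of which 4 rose, 7 fell and 15 did not pass (42.3% passed, against 28.4% of all genes tested), and 1 of the falls, KSR1 (named after its values were seen), reached the filter in si-SCR alone. The list had a median log2 fold change of -0.06. ELK4, an ETS partner of SRF and a target of ERK, was read at 3.69, 3.86 and 4.08 FPKM in si-SCR and at 9.52, 9.30 and 9.93 FPKM in si-CyCoNP. It rose 2.36-fold (log2 fold change 1.24, edgeR, adjusted p = 2.53e-10), the single gene of the list past a change of 2 times. Its relative ELK3 fell by 0.64 on the log2 scale (edgeR, adjusted p = 1.84e-05). RPS6KA2, which encodes a kinase activated by ERK, fell by 0.87 (edgeR, adjusted p = 4.82e-06). Of the receptor genes upstream, 8 of 19 were tested, of which 1 rose, 2 fell and 5 did not pass (37.5%), with a median of -0.21. FGFR1 rose by 0.71 on the log2 scale (edgeR, adjusted p = 1.73e-06), RET, the receptor that retinoic acid induces in neuroblastoma cells, fell by 0.59 (edgeR, adjusted p = 7.23e-06) and INSR fell by 0.40 (edgeR, adjusted p = 0.0295), while IGF1R was at -0.23 (edgeR, adjusted p = 0.0618). The receptor counts moved with single libraries, with 2 rises without si-SCR replicate 1, si-SCR replicate 2 or si-CyCoNP replicate 3, with 4 falls without si-SCR replicate 3 and with 1 fall without si-CyCoNP replicate 1 or 2. These transcript levels do not measure the activity of the proteins.

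**Figure D4:**
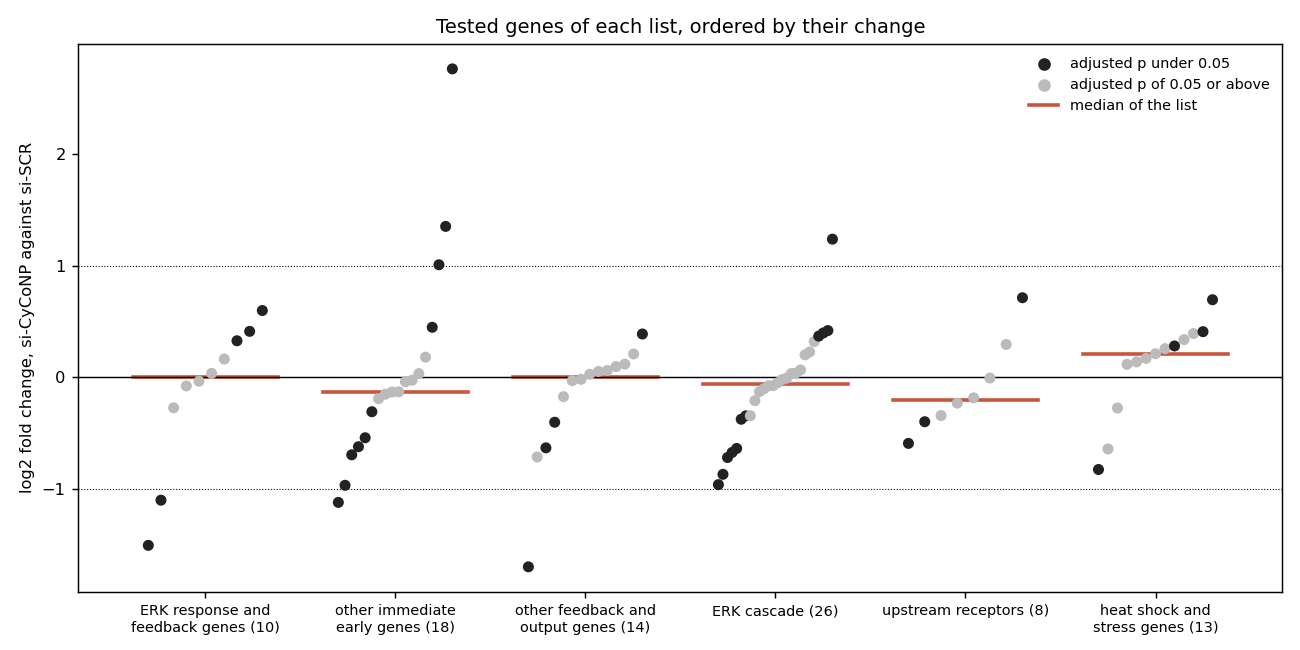
Log2 fold change of si-CyCoNP against si-SCR (vertical axis, dotted lines at changes of 2 times) for every tested gene of the 10 genes described here and of 5 lists of related genes, with the number of tested genes in brackets; black points had an adjusted p under 0.05, grey points had not, and the red bar is the median of the list. Each list holds genes on both sides of 0, with medians from -0.21 (upstream receptors) to 0.21 (heat shock and stress genes).

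Immediate early genes also respond to heat and handling, and 13 heat shock and stress genes were therefore read beside them. All 13 were tested, of which 3 rose, 1 fell and 9 did not pass (30.8% passed, near the 28.4% of all genes tested), with a median log2 fold change of 0.21. Their summed level was 771 to 1126 FPKM in si-SCR against 1032 to 1301 FPKM in si-CyCoNP, with overlap through si-SCR replicate 3. The mitochondrial chaperonin gene HSPD1 rose by 0.70 on the log2 scale (edgeR, adjusted p = 8.98e-06), DNAJB1 by 0.41 (edgeR, adjusted p = 0.0261) and HSPH1 by 0.28 (edgeR, adjusted p = 0.0312), and the small heat shock gene HSPB1 fell by 0.83 (edgeR, adjusted p = 5.37e-07). The count of 3 rises depended on the libraries used. It was 7 without si-SCR replicate 3, 6 without si-CyCoNP replicate 1, and 1 without si-SCR replicate 1, si-CyCoNP replicate 2 or si-CyCoNP replicate 3, and without si-SCR replicate 3 there were 2 falls. The part of these genes in the values of EGR1, IER2, JUN and FOS was not tested.

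Of all tested genes, the 3 whose profile over the 6 libraries was most like that of DUSP4 were PLPP4 (Pearson r = 0.999), CERT1 (0.999) and GATA2 (0.998), computed on log2 counts after TMM scaling. PLPP4 stood at 17.1 ± 4.91 FPKM in si-SCR against 2.27 ± 0.248 FPKM in si-CyCoNP, CERT1 at 7.11 ± 0.667 and 3.87 ± 0.0969 FPKM, and GATA2, an adrenergic transcription factor, at 342 ± 22.6 and 172 ± 9.95 FPKM (SD, n = 3). For JUN the nearest were MTUS1-DT, EDEM1 and RNA5SP385 (each r = 0.999). EDEM1, an endoplasmic reticulum protein of glycoprotein disposal, stood at 17.1 ± 0.782 FPKM in si-SCR against 6.73 ± 0.290 FPKM in si-CyCoNP (SD, n = 3). MTUS1-DT and RNA5SP385 were low genes, with si-SCR means of 1.39 and 4.29 FPKM, listed at 0 in all 3 si-CyCoNP libraries. Both reached the expression filter in si-SCR alone. MTUS1-DT passed the test (edgeR, adjusted p = 0.0304) and RNA5SP385 did not (edgeR, adjusted p = 0.0815). The 6 points share the 2 groups and the same libraries, and 76 genes for DUSP4 and 86 for JUN had an r above 0.99, so these are descriptions of likeness over 2 groups.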

How the data were processed

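Total RNA libraries of SK-N-BE cells were made with a stranded, ribosomal RNA depleted kit. Per the submitters' processing notes, Trimmomatic 0.39, Cutadapt 3.2, Bowtie2 2.4.2 and STAR 2.7.7a were used with GRCh38. The deposited table of raw counts per Ensembl gene was made by the authors, who counted uniquely mapping fragments with STAR. The strand setting of the counting is not given in the sources used here, so fragments of overlapping antisense genes may not be separated. The deposited FPKM values were also made by the authors and scale those counts by gene length and library total, without a correction for library composition. Genes with near-identical copies (HSPA1A and HSPA1B here) are less certain.

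Counts of the 6 libraries, grouped by the sample titles, were tested between the groups in edgeR 4.0.16 (quasi-likelihood fit, R 4.3.3, TMM normalization, no covariates) on all 13966 genes with a mean of at least 1 FPKM in either group, with Benjamini-Hochberg adjustment over all of them. The test was also run on simulated counts with the same spread setting for every gene, which does not measure its error rate in these data. Alternatives used DESeq2 1.42.0, limma 3.58.1 on log2(FPKM + 1) and log2(FPKM + 0.1), other scalings and filters, a replicate block, and each library left out. Levels are FPKM and folds come from edgeR, so that they can differ slightly. The 10 genes, LINC02381, up to 4 genes of each of 5 lists (those with the smallest p), and the 3 genes most like JUN and DUSP4 were named by rule, and other genes named are marked as such or serve as neighbours, family members or markers. For 1 gene named by the rule no value is reported here, though list counts and medians include it. The genes and lists were chosen with earlier results of these data known. Promoters and the miRNA come from RefSeq, positions and 3′UTRs from GENCODE on GRCh38. The siRNA sequences were not used here.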

Additional observations from a re-analysis of the deposited data

How the results depend on the processing

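The calls of JUN, EGR1, IER2, DUSP4, SPRY4 and LINC02381 kept their direction and their side of an adjusted p of 0.05 in all 14 alternatives, with log2 fold changes from -1.16 to -0.97, 0.53 to 0.67, 0.36 to 0.48, -1.64 to -1.39, 0.26 to 0.40 and -4.16 to -2.90. The number of the 10 genes lower by at least 2 times was 1 in place of 2 with limma on log2(FPKM + 1), a scale that compresses JUN. Signs turned for genes that passed in no fit. FOS was at 0.0468 without si-SCR replicate 3 and DUSP6 at 0.0101 without si-CyCoNP replicate 3. SPRY2 was at 0.0348 with library totals alone, at 0.0396 and 0.0415 with limma and a pseudocount of 1 or 0.1, at 0.0607 and 0.0214 without si-SCR replicate 1 or 2, and at 0.00203 without si-CyCoNP replicate 1. SPRED1 was at -0.00683 without si-SCR replicate 3 and at -0.0526 without si-CyCoNP replicate 1. With each library left out in turn, FOS ran from -0.47 to 0.0468, DUSP6 from -0.158 to 0.0101, SPRY2 from -0.18 to 0.0607 and SPRED1 from -0.0526 to 0.0794. The cause was not tested. Over all genes, limma on log2(FPKM + 1) gave 1118 lower genes and on log2(FPKM + 0.1) 1113, against 1990 in edgeR.

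Replicate numbers are shared by the groups. Deviations of same-numbered libraries correlated at 0.0907, 0.0727 and 0.108, each library best with its own number, which is a hint from the data and not the design. With the replicate block the JUN log2 fold change was -1.10, no call among the 10 genes changed, 7 heat shock and stress genes rose in place of 3, and 4 receptor genes fell in place of 2 and 2 rose in place of 1.

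Counts in the lists moved most. Heat shock and stress genes that rose numbered 1 with DESeq2 and with limma, 6 with library totals and 7 without a filter. Rising immediate early genes numbered 2 with limma in place of 4, falling feedback genes 1 in place of 3, and rising relay genes 7 with library totals in place of 4. Rising feedback genes numbered 0 with DESeq2 and limma and 2 without a filter. Rising receptor genes numbered 2 with library totals, with the default edgeR filter and without a filter, and falling ones 1 with DESeq2, limma or library totals. With 45 to 101 counts per library, FOS was the least precisely measured of the 10 genes.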
